A study of Mus musculus with 4 samples.

Results

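The genes described here are the feedback inhibitors and transcription factors that ERK, the extracellular signal-regulated kinase, switches on in many cell types. They were taken by symbol from a list of ERK-induced phosphatases, Sprouty and Spred inhibitors and ETS factors, with Phlda1 added by the same list, and all 10 were found among the 17630 genes of the files. ERK is the last kinase of a chain that runs from growth factor receptors through RAS, RAF and MEK. Once active, it drives transcription of its own inhibitors, so their transcripts are widely used as a readout of the pathway, although they do not measure the phosphorylation of ERK itself. In the mammary gland this chain is engaged by ligands of the EGF and FGF families during growth of the ducts.

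RNA-seq was performed on mammary basal cells, which line the outside of the duct epithelium, in 4 libraries from wild-type (WT) mice, with 1 library per condition. Basal cells were sorted from control mice or from mice given 6-OHDA (6-hydroxydopamine), a neurotoxin that destroys sympathetic nerve endings. The sort removed cells carrying CD31, CD45 or TER119 and kept those positive for CD24 and high for CD29. The other 2 libraries came from colonies that such cells formed in a basement membrane gel (Matrigel), one without agonist and one with SP, the adrenergic receptor agonists salbutamol (beta) and phenylephrine (alpha). The medium of both colony groups held EGF, itself a ligand that activates ERK. The SP library is marked with the number 200 in its title and the control colonies with 0, without a unit. The labels hold no entry for culture, and the library titled with 0 was taken as the colony control because its title pairs with that of the SP library and its treatment is given as none. Every control colony value, and both comparisons that use it, rest on this reading. The 6-OHDA was injected under the skin. The study used C57BL/6 and Actin-DsRed mice, and which of them gave these libraries, and their age at the sort, were not given in the sources used here.

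All values are FPKM, fragments scaled by transcript length and by the number of mapped fragments, so levels of different genes can be set side by side. They summed to 508071 in the control sorted cells, 517504 in the 6-OHDA sorted cells, 577631 in control colonies and 588202 in SP colonies. The 10 genes together made up 0.115%, 0.107%, 0.0593% and 0.0507% of these sums, in the same order. Their summed level was thus lower in both colony libraries than in both sorted libraries. Differences are given on the log2(FPKM + 1) scale, which understates the change of low genes, among genes with a mean of at least 1 FPKM over the 2 libraries compared. A gene is called higher or lower when its difference exceeds 0.3. With 1 library per condition no difference has a replicate check, and no test was made. In these bulk samples, fewer cells of a type and less RNA per cell cannot be told apart.

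**Figure D1:**
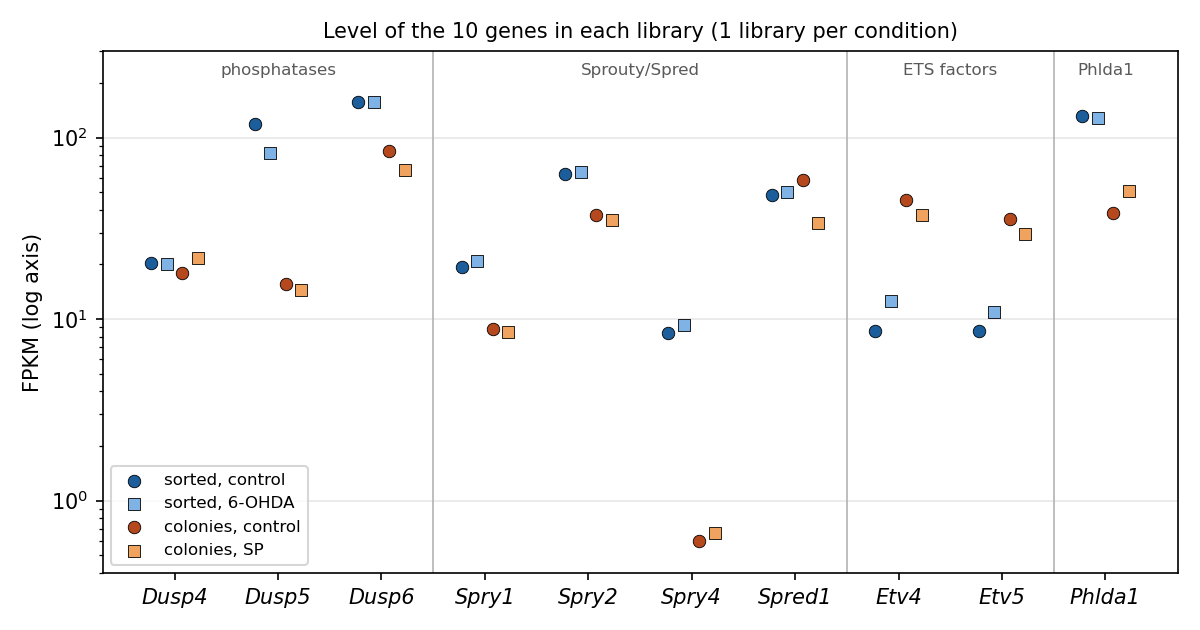
FPKM on a log axis of the 10 genes in each of the 4 libraries, grouped by role, with 1 point per library. The 2 colony points lie below the 2 sorted points for Dusp5, Dusp6, Spry1, Spry2, Spry4 and Phlda1, and above them for Etv4 and Etv5.

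Dusp6, Dusp5 and Dusp4 encode phosphatases that remove phosphate from MAP kinases. Gene locations are those of RefSeq in GRCm38.p6. Dusp6 (NCBI Gene 67603, chr10:99263231-99267489) acts on ERK in the cytoplasm and was the most abundant of the 10 genes in all 4 libraries. It was listed at 157 FPKM in control sorted cells, 157 in 6-OHDA sorted cells, 84.0 in control colonies and 66.2 in SP colonies. The sorted libraries were level with each other, and both colony libraries were below them. Dusp5 (NCBI Gene 240672, chr19:53529145-53541809), which acts on ERK in the nucleus, was listed at 118, 82.6, 15.6 and 14.5 FPKM in the same order. It was high in control sorted cells, lower with 6-OHDA, and lower still in both colony libraries whether or not SP was present. The FPKM of Dusp5 was 0.753 of that of Dusp6 in control sorted cells, 0.526 with 6-OHDA, 0.186 in control colonies and 0.219 in SP colonies. Dusp4 (NCBI Gene 319520, chr8:34807610-34819894), a nuclear phosphatase of several MAP kinases, was listed at 20.5, 20.0, 17.9 and 21.9 FPKM. Its sorted and colony values overlapped.

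The Sprouty proteins hold back signaling between receptor tyrosine kinases and RAF. Spry2 (NCBI Gene 24064, chr14:105891947-105896819) was the most abundant of the 3 Sprouty genes here, with 63.0 FPKM in control sorted cells, 64.5 with 6-OHDA, 37.4 in control colonies and 35.3 in SP colonies. Spry1 (NCBI Gene 24063, chr3:37639947-37644599) was listed at 19.5, 20.8, 8.78 and 8.48 FPKM in the same order. Spry4 (NCBI Gene 24066, chr18:38586247-38601347) was listed at 8.35, 9.25, 0.60 and 0.66 FPKM. All 3 genes were higher in the sorted libraries than in the colony libraries, and within each pair of libraries their values lay close together. Spry4 was the lowest of the 10 genes in every library, and its colony values rest on roughly 48 and 53 fragments, by a rough estimate of depth. The FPKM of Spry2 was 7.55 times that of Spry4 in control sorted cells and 62.3 times that of Spry4 in control colonies. Spred1 (NCBI Gene 114715, chr2:117121071-117182279), a relative of the Sproutys that brings the RAS inhibitor neurofibromin to the membrane, was listed at 48.0, 50.1, 58.7 and 33.7 FPKM. It did not follow them, since its highest value was that of the control colonies and its lowest that of the SP colonies.

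Etv4 (NCBI Gene 18612, chr11:101769747-101785310) and Etv5 (NCBI Gene 104156, chr16:22381313-22439570) encode ETS transcription factors of the PEA3 subfamily, which are induced by FGF and ERK signaling. Etv4 was listed at 8.60 FPKM in control sorted cells, 12.6 with 6-OHDA, 45.5 in control colonies and 37.5 in SP colonies. Etv5 was listed at 8.65, 10.9, 35.7 and 29.4 FPKM. The pair ran in the opposite direction to the phosphatases Dusp5 and Dusp6, with both colony libraries above both sorted libraries. The FPKM of Dusp6 was 18.2 times that of Etv4 in control sorted cells and 1.85 times in control colonies. Phlda1 (NCBI Gene 21664, chr10:111506286-111508649), a pleckstrin homology-like domain protein induced by growth factors, was listed at 132, 128, 38.3 and 50.6 FPKM. It was lower in both colony libraries than in both sorted libraries. Even so, it stood above 86.5% of all genes in control colonies and above 89.9% in SP colonies.

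The order of the 10 genes by level differed between sorted cells and colonies. In control sorted cells Dusp6 was followed by Phlda1 and Dusp5, and Etv5, Etv4 and Spry4 were last. In control colonies Dusp6 was followed by Spred1 and Etv4, and Dusp5 was eighth. Dusp6 stood above 97.1% of all genes in control sorted cells and above 94.2% in control colonies, while Spry4 stood above 63.0% and 29.5%.

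Within sorted cells the comparison asks whether loss of sympathetic nerves went with a change of these genes. All 10 genes passed the filter. Etv4 was higher with 6-OHDA by 0.50 and Etv5 by 0.30 on the log2 scale, and Dusp5 was lower, with a difference of -0.51. The other 7 lay within 0.3, between -0.05 for Phlda1 and 0.13 for Spry4. The genes higher were 2 of 10, where 15.8% of the 11749 genes compared were higher, and those lower were 1 of 10, where 8.35% were lower. These shares are near those of all genes. The median difference was 0.05 for the 10 genes and 0.06 for all genes. Etv5 lay just past the threshold, and after scaling by the median ratio of all genes its difference was 0.25. Dusp5 stood further out, with 3.12% of the genes compared falling by more.

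Transcripts of other cell types differed between these 2 libraries as well. Of 6 fibroblast markers, 4 were higher with 6-OHDA, and the list summed to 175 FPKM in the control and 367 FPKM in the 6-OHDA library, with Dcn the most abundant in both and no marker listed at 0. Of 11 salivary gland secretory genes, 9 passed the filter and all 9 were higher. Apart from Amy1, these 9 were well below 1 FPKM in the control and passed only through their 6-OHDA level. The direction of those genes was thus set by the filter. The 11 genes summed to 1.87 FPKM in the control, where 8 were listed at 0. With 6-OHDA they summed to 15754 FPKM, led by Bpifa2 at 7277 FPKM. The 6 endothelial markers, of a cell type that the sort against CD31 should remove, summed to 240.4 and 230.0 FPKM, led by Pecam1, and 2 of them, Emcn and Tek, were higher while 0 were lower. The 8 leukocyte markers summed to 10.1 and 9.50 FPKM, led by Cd68, with Cd3e listed at 0 with 6-OHDA. The 5 adipocyte markers summed to 211 and 375 FPKM, almost all of it Fabp4, the 4 pericyte markers to 34.6 and 43.1 FPKM, led by Rgs5, and the 5 nerve and Schwann cell markers to 61.5 and 76.6 FPKM, led by Sox10. Of 6 proliferation genes, 5 were higher with 6-OHDA. Of the 10 basal markers, which summed to 11203 and 10235 FPKM with Krt14 the most abundant in both, 1 was higher and 2 were lower. Krt14 differed by -0.45, Krt17 by -0.46 and Acta2 by 0.40. The other 7 lay within 0.3, and the median of the 10 was 0.08. Of the 10 luminal markers, which summed to 1102 and 997 FPKM and were led by Krt8, 1 was higher and 2, Prlr and Krt18, were lower among the 9 tested. With both libraries rescaled to the same sum without the salivary genes, Dusp5 differed by -0.49, Etv4 by 0.51 and Etv5 by 0.32. The part of the other cell types in these differences was not tested.

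Within colonies the comparison asks how the genes stood after adrenergic stimulation. Spry4 did not pass the filter, which left 9 genes. Phlda1 was higher with SP by 0.39, while Spred1 and Dusp6 were lower, with differences of -0.78 and -0.34. The remaining 6 lay between -0.27 and 0.28, with Etv4 and Etv5 at the low end and Dusp4 at the high end. The genes higher were 1 of 9, where 11.7% of the 11849 genes compared were higher, and those lower were 2 of 9, where 19.8% were lower. The shares were again near those of all genes. The median was -0.10 for the 9 genes and -0.07 for all genes. Of the genes compared, 2.75% fell by more than Spred1. After scaling by the median ratio Dusp6 lay at -0.27 and Dusp4 at 0.35, so both changed sides of the threshold, while Spred1 (-0.71) and Phlda1 (0.46) did not.

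Markers of several other cell types differed between the colony libraries. The 6 fibroblast markers summed to 39.1 FPKM without SP and 12.7 FPKM with it, led by Col1a2 in the control and Pdgfra with SP, and 4 of the 5 tested were lower with SP. The 5 adipocyte markers summed to 38.0 and 1.13 FPKM, with Fabp4 the most abundant in both and 2 markers listed at 0 with SP. The 6 endothelial markers summed to 11.9 and 3.21 FPKM, and 2 of them were tested. Erg alone carried the difference, from 10.3 to 1.41 FPKM, while Pecam1 stood at 1.39 and 1.56 FPKM and Cdh5 at 0.12 in both. The 10 luminal markers summed to 1503 and 1499 FPKM, led by Krt8, with 1 higher and 4 lower with SP, among them Foxa1, from 15.2 to 8.32 FPKM, and Esr1, from 3.62 to 1.87 FPKM. The 10 basal markers summed to 6733 FPKM without SP and 14610 FPKM with it, led by Krt14, and 7 of them were higher with SP. Their part in the differences of Spred1, Phlda1 and Dusp6 was not tested.

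**Figure D2:**
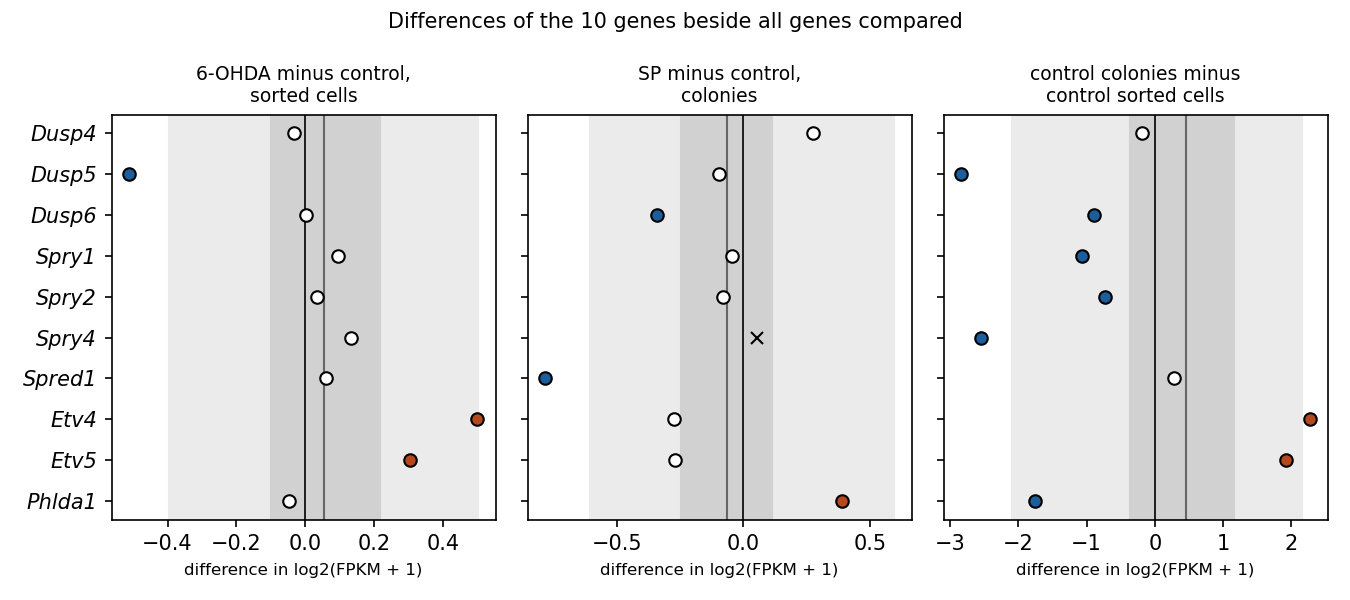
Difference in log2(FPKM + 1) of each of the 10 genes in the 3 comparisons, with genes higher by over 0.3 in red, those lower in blue and the rest open, and a cross for Spry4 in SP colonies, which did not pass the filter. Grey bands hold the middle 50% and the range from the 5th to the 95th percentile of all genes compared, and the grey line is their median, which lay at 0.45 in the right panel. Horizontal axes differ between panels.

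Between the controls the differences were much larger. This comparison shares the control sorted library with the 6-OHDA comparison and the control colony library with the SP comparison. Culture in Matrigel with EGF, time, cell preparation and library all differ between its sides and cannot be told apart. The median gene was higher in the colonies by 0.45 on the log2 scale, so each difference is given as measured and then after scaling by the median ratio of all genes, which was 1.42.

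Dusp5 was lower in the colonies, with a difference of -2.84, or -3.31 after scaling. Spry4 differed by -2.55, or -2.72 after scaling, and passed the filter only through its level in sorted cells. Its value depended on the pseudocount, with -3.59 at 0.1 and -1.25 at 5, where Dusp5 lay at -2.91 and -2.58, so the order of the pair is not fixed. Phlda1 differed by -1.76 (-2.25 after scaling), Spry1 by -1.06 (-1.51), Dusp6 by -0.89 (-1.39) and Spry2 by -0.74 (-1.23). These 6 genes span the phosphatases, the Sproutys and Phlda1. Etv4 was higher in the colonies by 2.28 (1.78 after scaling) and Etv5 by 1.93 (1.44). Spred1 lay at 0.29 (-0.21) and Dusp4 at -0.19, the latter passing the threshold after scaling, at -0.66.

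The genes lower in colonies were 6 of 10, where 26.6% of the 12244 genes compared were lower, and those higher were 2 of 10, where 55.7% were higher. By more than 1 on the log2 scale, 4 of 10 were lower, where 13.2% of all genes were, and 2 of 10 were higher, where 30.7% were. After scaling by the median ratio 7 were lower and 2 higher, while 39.4% and 39.7% of all genes were. The median was -0.82 for the 10 genes and 0.45 for all genes. Over the 4 libraries, 6 of 10 were lower in both colony libraries than in both sorted libraries, where 29.5% of 12282 genes were, and 2 of 10 were higher in both, where 56.4% were.

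Markers of other cell types differed between these libraries too. The endothelial markers summed to 240.4 FPKM in control sorted cells and 11.9 FPKM in control colonies, led by Pecam1 and Erg in turn, with none listed at 0. The leukocyte markers summed to 10.1 and 2.77 FPKM, led by Cd68, and 6 of 8 were listed at 0 in the colonies, Ptprc among them. The fibroblast markers summed to 175 and 39.1 FPKM, with 4 lower and 1 higher. Dcn, from 115 to 1.52 FPKM, carried most of that drop, while Pdgfra was higher, from 2.62 to 9.95 FPKM. The 10 luminal markers summed to 1102 and 1503 FPKM, led by Krt8. Of these 7 were higher and 1 lower in colonies, where 55.7% of all genes were higher, and after scaling 5 were higher and 2 lower. Of the 10 basal markers 7 were lower and 1, Krt5, was higher, from 1002 to 1888 FPKM, and after scaling 9 were lower and 1 higher. The contractile genes Myh11, Mylk and Cnn1 differed most, at -5.26, -4.76 and -4.04, whereas Krt14, the most abundant, stood at 3595 and 3298 FPKM. The nerve and Schwann cell markers summed to 61.5 and 11.4 FPKM, led by Sox10, with 2 lower and 1 higher of 3 tested. The adipocyte markers summed to 211 and 38.0 FPKM, led by Fabp4, which alone was tested and was lower. The pericyte markers summed to 34.6 and 24.6 FPKM, with 2 lower and 1 higher of 3 tested. Rgs5 went from 19.2 to 0.10 FPKM and Notch3 from 7.57 to 22.5 FPKM. The part of these differences in cell makeup in those of the 10 genes was not tested.

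Promoters were read for the genes above because several of them moved together between sorted cells and colonies. The RefSeq promoter table of GRCm38.p6 matched 6 of the 10 genes, with 7 promoters, 2 of them for Etv5. In the 250 bases before each start, 7 motif spellings were searched on both strands, all chosen after the expression values were known. They were the CArG box bound by serum response factor, the cAMP response element TGACGTCA and its shorter form TGACG, the AP-1 motif as TGACTCA and as TGANTCA, and the ETS motif CCGGAAGT and its core CCGGAA. The shorter form lies within the full one in each pair, and TGANTCA covers TGACTCA. Among all 32851 promoters, 1.47%, 1.55%, 17.8%, 4.46%, 6.75%, 2.88% and 12.0% held them, in this order.

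Only the Dusp5 promoter, of these 7, held any of the motifs. It held 2 CArG boxes side by side, as 0.0183% of all promoters did with 2 or more, and TGACG once. The promoters of Dusp6, Spry1, Spry2, Spred1 and Etv5 held none of the 7, which says only that these letters are not in that window. Dusp5 is shown because it carried the matches, and Dusp6, a further phosphatase among the 10 genes that was lower in colonies, is set beside it. Both stretches run from 250 to 51 bases before the RefSeq start on the plus strand, at chr19:53528895-53529094 for Dusp5 and chr10:99262981-99263180 for Dusp6, with CArG boxes in capitals. A match describes the sequence and is neither a site nor a cause.
Dusp5: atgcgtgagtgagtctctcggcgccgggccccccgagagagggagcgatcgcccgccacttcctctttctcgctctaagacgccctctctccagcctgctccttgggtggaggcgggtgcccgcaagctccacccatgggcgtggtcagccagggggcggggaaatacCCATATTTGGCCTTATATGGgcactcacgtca
Dusp6: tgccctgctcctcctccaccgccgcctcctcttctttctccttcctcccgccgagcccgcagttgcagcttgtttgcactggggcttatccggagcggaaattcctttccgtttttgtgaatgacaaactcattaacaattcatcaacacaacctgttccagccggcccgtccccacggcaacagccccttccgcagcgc

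Related genes were counted in the same way, beside the shares over all genes compared. Those shares were 15.8% higher and 8.35% lower with 6-OHDA, 11.7% and 19.8% with SP, and 55.7% and 26.6% in control colonies against control sorted cells. After median-ratio scaling they were 11.6% and 11.4%, 14.8% and 14.9%, and 39.7% and 39.4%. Genes on more than 1 list are counted in each.

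Of 18 other DUSP, Sprouty, Spred and ETS family genes, 17 were tested with 6-OHDA, where 1 was higher and 3 were lower. The gene higher was Etv1, which was low in both sorted libraries, at 0.81 FPKM in the control and 2.61 with 6-OHDA. With SP 4 were higher and 6 lower of 16, among them Dusp1, a phosphatase of stress kinases and ERK, from 134.6 to 68.1 FPKM. In control colonies against control sorted cells 5 were higher and 11 lower of 17, with a median of -0.83, against 0.45 for all genes, and after scaling 3 were higher and 12 lower. Dusp2 went from 11.6 to 0.20 FPKM and Dusp7, another ERK phosphatase, from 117 to 17.9 FPKM.

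A further 20 genes known to be induced by ERK were mostly lower in the colonies. There 17 of 20 were lower and 2 higher, with a median of -2.21, and 18 and 2 after scaling. Fosl1, an AP-1 subunit, went from 240.3 to 1.27 FPKM, Maff from 248 to 4.03 and Plaur, the urokinase receptor, from 265 to 8.23. With SP 12 of 20 were higher and 1 lower, with a median of 0.70, whereas the median of the 9 feedback genes tested was -0.10. Il24 went from 1.17 to 34.1 FPKM, Vegfa from 11.2 to 42.0 and Fosl1 from 1.27 to 5.14. With 6-OHDA 1 of the 19 tested was higher and 5 were lower, with a median of -0.18, and after scaling 1 was higher and 9 were lower.

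The 16 immediate-early factors, which growth factors induce within minutes, were lower in 14 and higher in 2 in the control colonies, with a median of -1.67, and after scaling 14 were lower and 0 higher. Egr2 went from 124 to 3.66 FPKM and Egr1 from 507 to 34.9. With SP 10 were lower and 2 higher, and with 6-OHDA 5 were lower and 0 higher. Of 10 genes known to be induced by cAMP, the messenger of beta receptors, 9 were tested with SP. The 2 higher were led by Areg, which is also among the ERK-induced and luminal genes, and 4 were lower. Of the 4 lower, Nr4a1 is also an immediate-early factor and Dusp1 also one of the family genes above. In control colonies 9 of 10 were lower, and with 6-OHDA 2 were lower and 0 higher.

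The RAS-RAF-MEK-ERK chain itself was covered by 28 genes. In control colonies 9 were higher and 11 lower, with a median of 0.02, against 0.45 for all genes. After scaling 4 were higher and 16 lower, with a median of -0.42. Mapk3, one of the genes of ERK, went from 25.6 to 107.7 FPKM, Erbb3, a receptor of the EGF receptor family, from 4.37 to 25.2, and the scaffold Ksr1 from 22.3 to 2.78. With SP 4 were higher and 5 lower, near the shares over all genes, and 4 and 3 after scaling. With 6-OHDA 3 were higher and 0 lower.

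The alpha-1 adrenergic receptor genes, targets of phenylephrine, were low, and Adra1d was the highest of them with 0.91 FPKM in control sorted cells, 0.82 with 6-OHDA, 1.49 in control colonies and 0.67 in SP colonies, values that rest on roughly 26, 22, 43 and 20 fragments. Of the proliferation genes 5 of 6 were higher in the control colonies than in control sorted cells, led by Top2a, from 2.59 to 40.0 FPKM. Pcna, the most abundant of them in all 4 libraries, was lower, from 232 to 157 FPKM. With SP 5 of 6 were higher.

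By their 3 differences from the control sorted library, the 5 genes nearest to Dusp6 among 9092 genes with a mean of at least 5 FPKM were Cd302, Tob1, Ubl3, Sntb2 and Naa30, at distances from 0.054 to 0.072 on the log2 scale over 4 libraries. Tob1, for example, was listed at 49.1, 49.2, 25.5 and 19.5 FPKM. None of these 5 is on the lists of ERK genes used here.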

How the data were processed

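The authors deposited FPKM values with 2 decimals for 17630 genes in each of 4 libraries. The submitters' processing notes name mm10, Bowtie2, RSEM 1.3.1 and DESeq2 1.4.5, without their roles, and the annotation is not given in the sources used here. Gene numbers were matched to RefSeq symbols of GRCm38.p6, which named 17512 genes. The 10 genes and all lists were chosen with earlier results of these data known. In each list at most the 3 tested genes with the largest change per comparison are named, apart from the most abundant markers and receptors, and from Cd3e, Ptprc, Cdh5, Pdgfra and Krt5, named after their values were seen, and some genes of the lists are not reported here. Differences used a pseudocount of 1, a mean of at least 1 FPKM and a threshold of 0.3. The code for these calls was checked on simulated libraries with known changes, which is no test of the differences themselves. Depth was estimated from the steps of low values of genes with a single GENCODE vM21 transcript. If fragments were 250 bases long, each FPKM corresponded to 16.3 to 17.9 fragments per kilobase, with fit scores of 0.43 to 0.45 where 1 is perfect. This is rough and gives no interval. Alternatives covered pseudocounts, filters, scalings and the threshold. Python 3.11.15, numpy 2.4.6, pandas 2.3.3 and matplotlib 3.10.9 were used.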

Additional observations from a re-analysis of the deposited data

How the results depend on the processing

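With 1 library per condition, a value counts as moved when it shifts by 0.3 or more or changes sides of 0.3. No difference that passed the threshold changed sign. With 6-OHDA 76 of 80 values for single genes kept their place, and the 4 that did not were all of Etv5. The count of genes higher, 2, became 1 with a pseudocount of 5, same-sum rescaling, median-ratio scaling and quantile normalization. With SP 3 of the 63 values moved, 2 of Dusp4 and 1 of Dusp6. The count of genes higher, 1, became 2 with median-ratio scaling and quantile normalization, and that of genes lower, 2, became 1 with median-ratio scaling. At a threshold of 1, 0 genes were higher and 0 lower in either comparison. Between the controls 24 of 89 values moved, the largest number of the 3 comparisons, and the median of -0.82 became -1.31 with median-ratio scaling. The count of genes lower, 6, became 7 with the 3 scalings and with the SP colony library. It became 5 with a mean of at least 5 FPKM and 4 at a threshold of 1, while that of genes higher was 2 in every alternative. The added gene was Dusp4 with the scalings. With the SP colony library it was Spred1, which went from 0.29 to -0.50, while Dusp4 lay at 0.09. Dusp5, Dusp6, Spry1, Spry2, Phlda1, Etv4 and Etv5 stayed past 0.3 in the same direction in all 9 alternatives, and Spry4 in all 8 in which it was tested. Of these, 2 were added after seeing the data, with the 6-OHDA sorted library or the SP colony library in place of its control. The genes higher made up 65.4% of the calls with 6-OHDA, 37.1% with SP and 67.7% between the controls over all genes. After median-ratio scaling they made up 50.5%, 49.8% and 50.1%. That scaling centres the differences of all genes, so nearly equal shares follow from its construction. The cause of the unequal shares before scaling was not tested. No paired analysis was possible because each condition has 1 library. Count tests planned for the case of counts were not run, as the files hold FPKM. Among the 10 genes, Spry4 in the colonies had the fewest fragments by the rough estimate.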
